A study of Mus musculus with 6 samples.

Results

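The sarcomeric myosin heavy chain genes encode the motor proteins of the muscle thick filament, and their expression was described in C2C12 myotubes after silencing of the microRNA miR-382-5p. Of 8 genes chosen by name (Myh1, Myh2, Myh3, Myh4, Myh6, Myh7, Myh7b and Myh8), 7 had a probe set annotated to that gene alone, among 18820 genes measured this way. All 7 lay above the filter on low levels and were among the 11292 genes tested. Myh6, the alpha-cardiac isoform, shared its only annotated probe set with Myh7, so no value was assigned to it.

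C2C12 is an immortalized mouse myoblast line whose cells fuse into multinucleated myotubes in low serum. All 6 arrays came from cells on day 7 of differentiation, 24 h after lipofection on day 6 with a locked nucleic acid oligonucleotide at a final 50 nM. The oligonucleotide blocked miR-382-5p in the 3 silenced arrays and was negative control A in the 3 control arrays, so both groups had been transfected. The line has neither innervation nor load. Whether replicates were grown separately is not stated, and the p-values therefore rest on a replicate spread that could be purely technical. Expression values are log2 levels per array, and a difference of 1 is a doubling of signal.

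A myosin heavy chain carries an ATP-splitting head that pulls on actin and a coiled tail that packs into the thick filament. Vertebrate muscle exchanges isoforms as it matures: embryonic and neonatal chains come first, and adult fast or slow chains follow, which set the speed of shortening. Fusing C2C12 cells are known to start with embryonic myosin and to add further isoforms as they mature. In the mouse, Myh3, Myh2, Myh1, Myh4 and Myh8 lie next to each other in this order on chromosome 11, Myh6 and Myh7 are neighbours on chromosome 14, and Myh7b stands apart on chromosome 2 (RefSeq, GRCm38.p6).

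The silenced microRNA is shown first because it defines the groups, followed by microRNAs known to be encoded in introns of Myh7b, Myh6 and Myh7. Capitals mark the seed, bases 2 to 8, in the RefSeq mature sequences of GRCm38.p6.
mmu-miR-382-5p: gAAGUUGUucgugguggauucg
mmu-miR-499-5p: uUAAGACUugcagugauguuu
mmu-miR-208a-3p: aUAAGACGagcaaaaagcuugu
mmu-miR-208b-3p: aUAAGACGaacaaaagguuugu
The microRNAs miR-208a-3p and miR-208b-3p share the seed UAAGACG, miR-499-5p has UAAGACU, and miR-382-5p has AAGUUGU. The arrays carried single-gene probe sets for the precursor genes Mir208a and Mir499, and Mir208b is not analysed here. Mir208a read 2.29, 2.32 and 2.24 in the controls and 2.45, 2.54 and 2.51 in the silenced arrays. Mir499 read 2.32, 2.50 and 2.43 and then 2.29, 2.31 and 2.51. Both lay below the filter level of 3.87 and were not tested. The precursor probe set of Mir382 also lay below it, at 1.81 ± 0.15 (SD, n = 3) in controls and 2.18 ± 0.17 in silenced arrays, and does not check the silencing.

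The promoters of the neighbouring genes on chromosome 11 are shown because most of these genes read higher together in the silenced arrays. Each sequence runs from 250 bases before to 50 bases after a RefSeq transcript start. Capitals mark TATAAA, matches to the MEF2 box (a site bound by the muscle regulators of the MEF2 family) and the stretch TTCTAATTATATCC.
Myh3 promoter, chr11:67078050-67078349, plus strand: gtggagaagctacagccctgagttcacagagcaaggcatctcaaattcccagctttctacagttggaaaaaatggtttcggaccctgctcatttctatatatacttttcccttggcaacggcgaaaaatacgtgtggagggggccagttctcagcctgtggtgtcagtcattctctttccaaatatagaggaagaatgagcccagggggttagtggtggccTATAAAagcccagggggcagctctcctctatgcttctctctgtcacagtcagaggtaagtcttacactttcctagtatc
Myh2 promoter, chr11:67170777-67171076, plus strand: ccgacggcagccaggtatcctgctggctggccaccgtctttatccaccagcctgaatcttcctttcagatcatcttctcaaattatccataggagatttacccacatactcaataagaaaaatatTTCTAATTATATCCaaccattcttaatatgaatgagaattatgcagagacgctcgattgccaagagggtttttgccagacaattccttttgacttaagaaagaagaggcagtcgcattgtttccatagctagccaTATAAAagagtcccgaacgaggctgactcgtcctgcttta
Myh1 promoter, chr11:67199852-67200151, plus strand: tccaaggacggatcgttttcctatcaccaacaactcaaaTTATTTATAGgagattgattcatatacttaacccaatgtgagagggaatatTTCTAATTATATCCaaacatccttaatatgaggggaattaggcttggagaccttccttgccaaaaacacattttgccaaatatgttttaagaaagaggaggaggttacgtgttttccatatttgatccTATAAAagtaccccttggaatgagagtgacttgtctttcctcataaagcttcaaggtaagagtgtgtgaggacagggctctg
Myh4 promoter, chr11:67237562-67237861, plus strand: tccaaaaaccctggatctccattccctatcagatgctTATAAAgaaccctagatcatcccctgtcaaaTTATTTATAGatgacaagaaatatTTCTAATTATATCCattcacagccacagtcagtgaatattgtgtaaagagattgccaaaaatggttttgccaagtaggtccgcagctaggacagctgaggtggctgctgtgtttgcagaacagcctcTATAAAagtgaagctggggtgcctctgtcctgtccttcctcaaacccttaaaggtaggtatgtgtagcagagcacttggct
Myh8 promoter, chr11:67276874-67277173, plus strand: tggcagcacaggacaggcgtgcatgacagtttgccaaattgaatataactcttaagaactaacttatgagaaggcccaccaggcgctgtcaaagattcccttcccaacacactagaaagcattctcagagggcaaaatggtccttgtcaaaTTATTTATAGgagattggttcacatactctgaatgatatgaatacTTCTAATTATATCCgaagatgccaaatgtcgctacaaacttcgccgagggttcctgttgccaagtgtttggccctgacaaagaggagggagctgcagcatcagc
The 14-base stretch TTCTAATTATATCC was found as the longest one common to Myh2, Myh1, Myh4 and Myh8. It began 125, 160, 158 and 54 bases before the respective transcript starts. On either strand it occurred in 4 of 32851 promoters of this length (0.0122%), and since it was found from these 4 genes that share is a description. The Myh3 promoter does not hold it. Myh8 and Myh1 shared an unbroken run of 22 bases, TCAAATTATTTATAGGAGATTG, which holds the MEF2 box match. Searched on both strands, the MEF2 box matched in 3 of the 8 genes (Myh8, Myh1 and Myh4) and in 3.19% of all promoters, and each of these matches overlapped a TATAAA on the other strand. TATAAA was present in 6 of 8 genes and 13.6% of all promoters. It began 29, 32 and 31 bases before the start in Myh3, Myh1 and Myh4. The E-box CANNTG, bound by MyoD and myogenin, occurred in 6 of 8 and 72.3%. The MCAT element CATTCC, bound by TEAD factors, occurred in 4 of 8 and 14.7%, and the CArG box, bound by SRF, in 1 of 8 (Myh4) and 1.63%. No binding was measured, and the matches are letters only.

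The embryonic isoform gave the highest signal of the family and Myh7b the lowest. Control means were 11.28 for Myh3, 10.88 for Myh1, 10.08 for Myh4, 7.09 for Myh8, 7.08 for Myh7, 5.34 for Myh2 and 4.79 for Myh7b. The silenced arrays gave the same order except for Myh7 (7.47) and Myh8 (7.28), whose values overlapped in both groups. The other neighbours in this order did not overlap in either group. Each value is a summary over the probes of a set, whose affinities differ between genes and are unknown, so this is an order of array signals and not of transcript numbers. The coding sequences of close paralogs can also share probe signal, and its size was not tested.

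**Figure D1:**
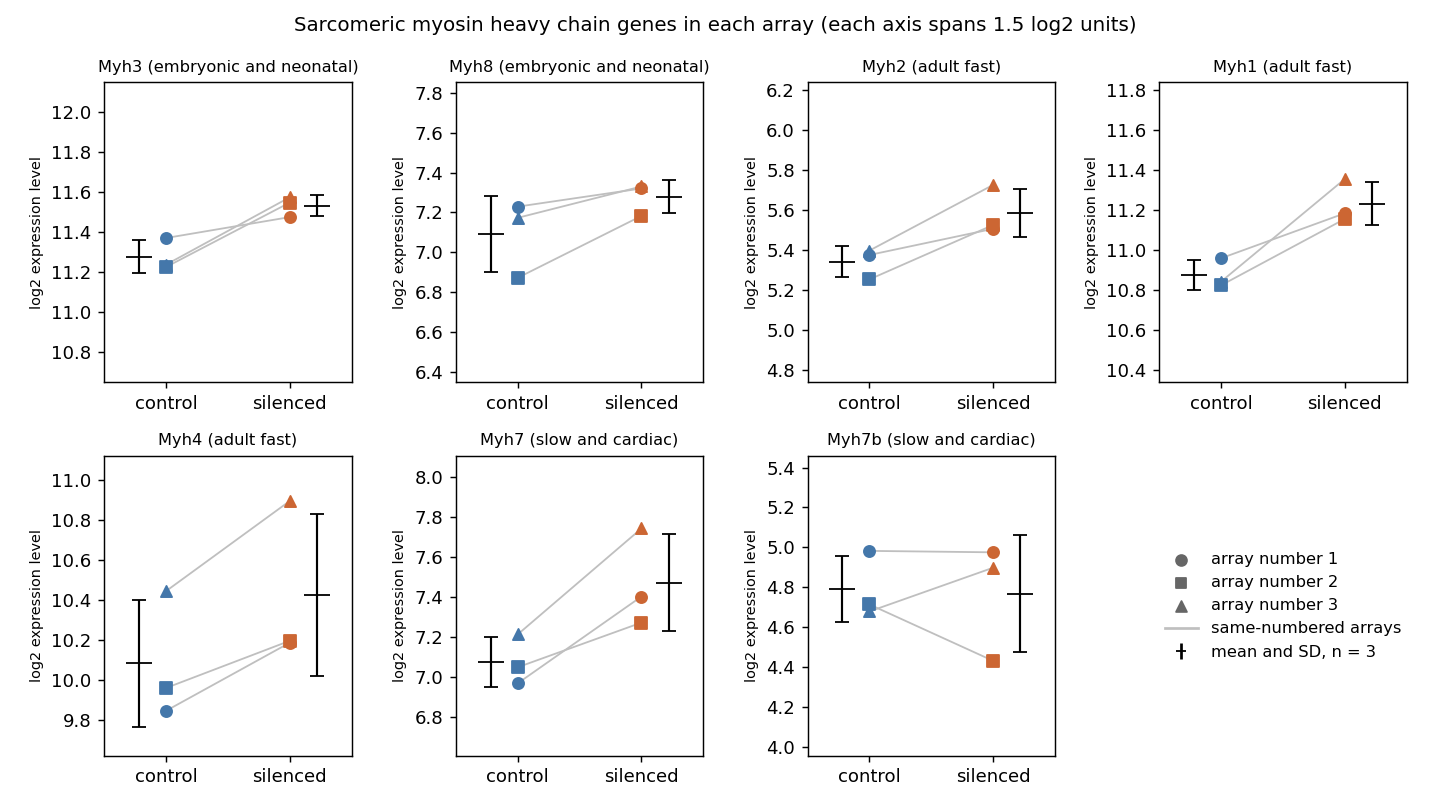
Log2 expression level of the 7 measured genes in each of the 6 arrays, control at left and silenced at right of each panel, with lines joining arrays of the same replicate number and black bars for mean and SD (n = 3). Every axis spans 1.5 log2 units; all 3 lines slope upward for 6 genes, and 1 of the 3 does for Myh7b.

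In silenced arrays 6 of the 7 measured genes had a higher mean than in controls, by 0.19 to 0.40 log2, and Myh7b did not. No gene passed limma's Benjamini-Hochberg adjustment over all 11292 tested genes (0 of 7 members, and 0% of all tested genes; smallest adjusted p = 0.487 over all genes). At an unadjusted p under 0.05 there were 4 members with a higher mean in silenced arrays (Myh3, Myh2, Myh1 and Myh7), where 2.83% of all tested genes met that rule. By the same rule 0 members had a lower mean, against 1.97% of all tested genes, and 542 genes (4.8%) differed in either direction. The same 4 members had all 3 silenced values above all 3 control values, as did 6.94% of all tested genes. No member had all 3 silenced values below the controls, against 4.87% of all tested genes. The same-numbered arrays were higher after silencing in all 3 pairs for 6 of the 7 members, and for 19.7% of all tested genes. The median difference was 0.26 over the 7 members and 0.0089 over all tested genes, of which 52.7% had a higher mean in silenced arrays. The members were chosen with earlier results of these data known, so these counts describe them and carry no p of their own. In such bulk RNA fewer cells of a type and less RNA per cell cannot be told apart.

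The count of 4 members at an unadjusted p under 0.05 depended on which arrays were kept. It stayed at 4 without silenced replicate 1 or without silenced replicate 2, and was 1 without silenced replicate 3. It was 2, 1 and 2 without control replicates 1, 2 and 3. Over all 11292 genes, in either direction, the count was 808, 549 and 415 without silenced replicates 1, 2 and 3. Without control replicates 1, 2 and 3 it was 830, 402 and 276. The share of all genes that were higher was not computed when arrays were left out. When arrays were blocked by replicate number the member count was 5, Myh4 being added. By that rule 5.77% of all tested genes were higher and 10.3% differed in either direction. In that limma fit, too, 0 members and 0% of all tested genes passed adjustment.

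The developmental isoforms are the embryonic chain Myh3, made first in forming fibres, and the neonatal or perinatal chain Myh8. Myh3 (probe set 10377018) read 11.37, 11.22 and 11.24 in control replicates 1 to 3 and 11.47, 11.55 and 11.57 in the silenced arrays. The groups did not overlap, and control replicate 1 lay 0.10 below its silenced counterpart, against 0.32 and 0.34 for the other pairs. The difference was 0.26 ± 0.08 (SE), a 1.19-fold higher signal (limma, unadjusted p = 0.0154, adjusted p = 0.871).

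Myh8 (probe set 10377148) read 7.23, 6.87 and 7.17 in controls and 7.32, 7.18 and 7.33 in silenced arrays. Control replicate 2 was the low array, and silenced replicate 2 lay below control replicate 1, so the groups overlapped. The difference was 0.19 ± 0.11 (SE; limma, unadjusted 95% interval -0.08 to 0.45, adjusted p = 0.871), and 0.077 without control replicate 2.

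The adult fast isoforms are Myh2 (type IIa fibres), Myh1 (type IIx fibres) and Myh4 (type IIb fibres, the fastest in the mouse). Myh2 (probe set 10377055) read 5.37, 5.25 and 5.40 in controls and 5.50, 5.52 and 5.72 in silenced arrays. Silenced replicate 3 was highest and the groups did not overlap. The difference was 0.24 ± 0.09 (SE), or 1.18-fold (limma, unadjusted p = 0.0334, adjusted p = 0.871).

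Myh1 (probe set 10377087) read 10.96, 10.82 and 10.84 in controls and 11.18, 11.16 and 11.36 in silenced arrays, again with silenced replicate 3 highest and no overlap. Its difference of 0.36 ± 0.09 (SE) was 1.28-fold, with the smallest unadjusted p of the family (limma, unadjusted p = 0.00482, adjusted p = 0.871). Leaving out any single array gave values between 0.30 and 0.40.

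Myh4 (probe set 10377117) read 9.84, 9.96 and 10.44 in controls and 10.19, 10.19 and 10.89 in silenced arrays. Both arrays numbered 3 stood apart, and control replicate 3 lay above silenced replicates 1 and 2. Within numbers 1, 2 and 3 the difference was 0.34, 0.24 and 0.45, while the groups overlapped as a whole. The mean difference of 0.34 ± 0.23 (SE) had an unadjusted p of 0.18 by limma, and 0.00425 when arrays were blocked by number (SE 0.08, adjusted p = 0.464). It was 0.11 without silenced replicate 3, 0.22 without control replicate 1 and 0.52 without control replicate 3.

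Among the slow and cardiac isoforms, Myh7 encodes the beta-cardiac chain that is also the myosin of slow skeletal fibres. Myh7 (probe set 10419934) read 6.97, 7.05 and 7.21 in controls and 7.40, 7.27 and 7.74 in silenced arrays. All silenced values lay above all control values, and the arrays numbered 3 were highest in both groups. The difference of 0.40 ± 0.14 (SE), or 1.32-fold, was the largest of the 7 (limma, unadjusted p = 0.0216, adjusted p = 0.871). Without silenced replicate 3 it was 0.26.

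Myh7b, an ancient slow-type gene that hosts Mir499 and is known for little protein in most skeletal fibres, showed no such difference. Its probe set (10477673) read 4.98, 4.71 and 4.68 in controls and 4.98, 4.43 and 4.90 in silenced arrays. The lowest of the 6 values was silenced replicate 2, and the arrays numbered 1 were highest in both groups. The difference was -0.024 ± 0.160 (SE), with an unadjusted 95% interval from -0.40 to 0.35 (limma, adjusted p = 0.985). It includes the differences of Myh2, Myh3, Myh4 and Myh8 but not that of Myh7, nor, narrowly, that of Myh1. Blocked by number, the interval was -0.28 to 0.24 and included only the difference of Myh8. Such intervals leave out the error of the other gene, and a difference between Myh7b and the other members was not tested. The probe set shared by Myh7 and Myh6 read 4.59, 4.39 and 4.49 in controls and 4.59, 4.62 and 4.69 in silenced arrays, and cannot be assigned to either gene. A further probe set shared by Myh7 and the noncoding gene Mhrt read 2.77 ± 0.28 (SD, n = 3) in controls and 2.80 ± 0.15 in silenced arrays.

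**Figure D2:**
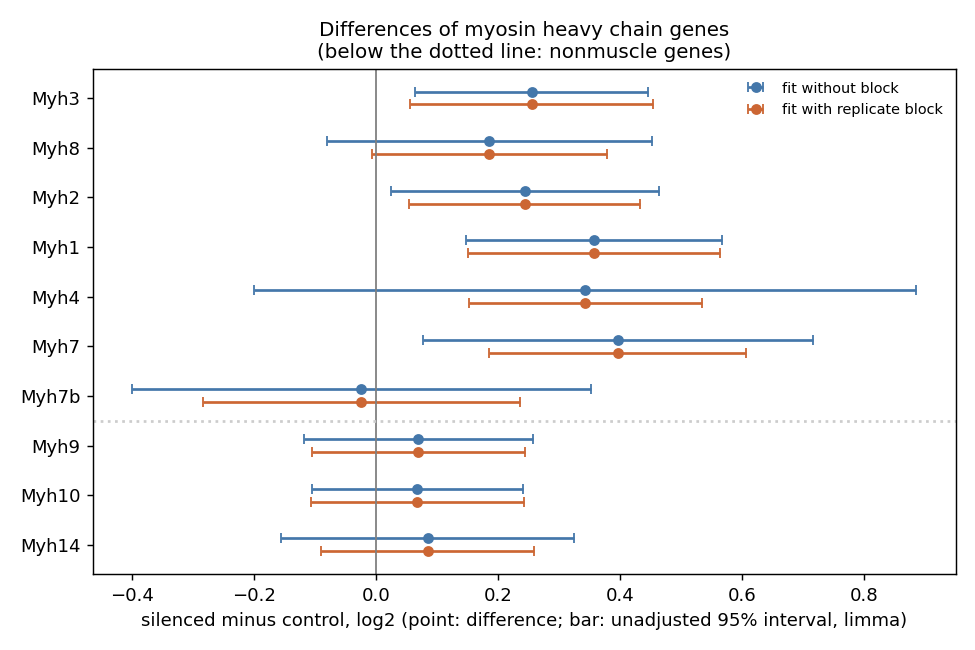
Difference of silenced minus control arrays (log2) for the 7 measured sarcomeric genes and, below the dotted line, 3 nonmuscle genes, with unadjusted 95% intervals of the limma fit without a block (blue) and blocked by replicate number (orange). Myh1, Myh2, Myh3 and Myh7 have intervals above 0 in both fits, Myh4 only with the block (0.15 to 0.53), and none passed adjustment over all genes.

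**Figure D3:**
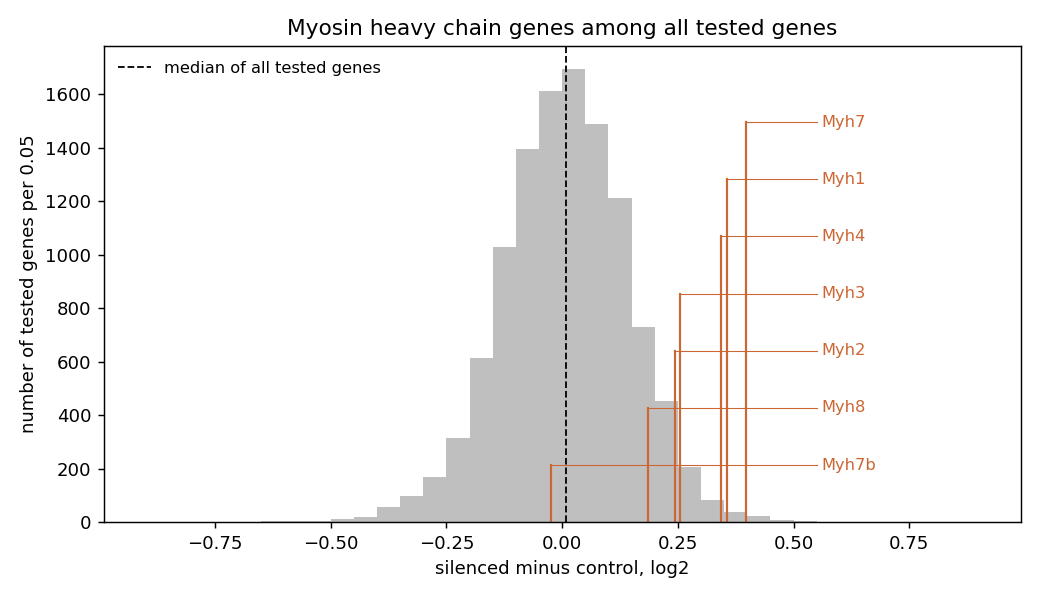
Number of tested genes (y axis) by difference of silenced minus control arrays (x axis, log2, bins of 0.05), with the 7 myosin heavy chain genes marked and a dashed line at the median of all tested genes (0.0089). Myh7, Myh1 and Myh4 lie in the upper tail and Myh7b near the middle.

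Among the differences of all tested genes, Myh7 lay at percentile 99.6, Myh1 at 99.3, Myh4 at 99.2, Myh3 at 97.1, Myh2 at 96.4, Myh8 at 91.1 and Myh7b at 40.4. Differences between isoforms within an array are given with no test. Within each array, Myh1 lay below Myh3 by 0.41, 0.40 and 0.39 log2 in controls and by 0.29, 0.39 and 0.22 in silenced arrays. This shift of 0.10 had no overlap only by a narrow margin, -0.393 in control replicate 3 against -0.390 in silenced replicate 2. The share of other gene pairs that separate in this way was not computed. Myh2 against Myh1 shifted by -0.11, also with no overlap. Myh8 against Myh3 shifted by -0.069, Myh4 against Myh3 by 0.088, Myh7 against Myh3 by 0.14 and Myh4 against Myh1 by -0.014, all with overlapping groups. Myh7b against Myh7 shifted by -0.42, from -2.29 ± 0.28 (SD, n = 3) to -2.71 ± 0.24, with overlap. The offsets between genes depend on their probes, and only the shifts can be read.

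Across the 6 arrays the isoforms ran together to different degrees, described here with Pearson's r over arrays that share group and replicate number. Myh3 and Myh1 stood at 0.96, Myh2 and Myh1 at 0.94, and Myh4 and Myh7, both high in the arrays numbered 3, at 0.90. Myh2 also reached 0.92 with Myh7 and 0.81 with Myh4, and Myh1 reached 0.86 with Myh7, so these genes formed no separate groups. Myh3 and Myh4 reached 0.46. Myh7b lay between 0.00087 and 0.19 with every other member except Myh8 (0.42). The mean of the 7 members, each set to its own mean over all arrays, was -0.098, -0.22 and -0.061 in controls and 0.091, -0.015 and 0.30 in silenced arrays.

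The tested genes most like that mean profile, by the highest Pearson's r of 11292 over 6 arrays, were Dclk1, Nat10, Zbtb20, Trp63 and Herc1, with r from 0.98 to 0.99. With the highest of so many genes chosen over 6 arrays, such values arise easily. For Myh3 the closest were Kmt2a, the fusion gene Mymk and Zfp106. For Myh1 they were Itsn1, Ogdh and Supt6, and for Myh2 they were Nek9, Trp63 and Zbtb20. Cacna2d1, a calcium channel subunit, Myh14 and Ubr3 were closest to Myh4, and Tacc2, Peak1 and Cpeb4 to Myh7. Myh8 was most like P2ry2, 2810039B14Rik and Als2cl, and Myh7b most like Plekho1, Spata33 and Mcmbp.

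Of 6 other myosin heavy chain genes, the nonmuscle genes Myh9, Myh10 and Myh14 were tested, and each had a small difference. Myh9, a cytoskeletal motor of most cells, read 11.40 ± 0.07 (SD, n = 3) in controls and 11.47 ± 0.06 in silenced arrays. Myh10 read 8.31 ± 0.04 and 8.38 ± 0.04, and Myh14 read 4.54 ± 0.11 and 4.62 ± 0.14. Their differences of 0.070, 0.068 and 0.085 did not pass (limma, adjusted p = 0.904, 0.900 and 0.907), nor did that of any sarcomeric member. Each was higher after silencing in all 3 same-numbered pairs, against 19.7% of all tested genes. For 1 of the 3 (Myh10) all silenced values lay above all control values, against 6.94% of all tested genes. The smooth muscle gene Myh11 (3.45 in controls), the extraocular gene Myh13 (3.11), which follows Myh8 on chromosome 11, and Myh15 (2.13) lay below the filter.

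The partners of myosin in the sarcomere differed from list to list. No member of the lists below passed limma's adjustment over all genes, against 0% of all tested genes. A higher mean in silenced arrays was found for 52.7% of all tested genes. All 10 tested genes of thick filament and M-band partners (of 13 listed) had a higher mean in silenced arrays. Their median difference was 0.17 against 0.0089 over all tested genes, and 0 had an unadjusted p under 0.05 by limma, where 2.83% of all tested genes were higher by that rule. With arrays blocked by number there were 4 of 10, all higher (Mybpc1, Myom1, Myom3 and Trim55, the last 2 named after their values were seen), against 5.77% of all tested genes, and 0 passed adjustment. Mybpc1 and Mybpc2, the slow and fast myosin-binding proteins C, differed by 0.22 ± 0.20 (SE) and 0.20 ± 0.16 (SE), and Myom1, the M-band cross-linker myomesin, by 0.29 ± 0.14 (SE). The cardiac protein gene Mybpc3 (3.46 in controls) was below the filter.

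Myosin light chains, which clasp the neck of the heavy chain, had a median difference of -0.031 over 5 tested genes of 7, with 2 higher and 3 lower. The essential light chain Myl1 read 12.19 ± 0.07 (SD, n = 3) in controls and 12.20 ± 0.10 in silenced arrays, and the embryonic Myl4 12.18 ± 0.09 and 12.15 ± 0.05. The fast regulatory light chain Mylpf read 12.16 ± 0.05 and 12.06 ± 0.02, with all silenced values below the controls. Myl2, the slow regulatory chain, read 8.55 ± 0.38 and 8.42 ± 0.46, and Myl6b 8.50 ± 0.22 and 8.62 ± 0.42. Myl3 (3.78 in controls) and the atrial Myl7 (3.07) were below the filter.

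Genes of myosin folding and assembly had a median difference of 0.0044 over 6 tested genes, with 3 higher and 3 lower. Unc45b, the muscle chaperone dedicated to myosin, differed by 0.15 ± 0.10 (SE), and its general relative Unc45a by -0.029 ± 0.087 (SE). Smyd1, a methyltransferase needed for thick filament assembly, differed by -0.049 ± 0.096 (SE). The chaperone genes Hsp90aa1, Ahsa1 and Hspa8 differed by -0.039, 0.038 and 0.050.

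Transcription factors known to act on myosin genes had a median of 0.074 over 18 tested genes, 15 higher and 3 lower, with 0 at an unadjusted p under 0.05 by limma against 4.8% of all tested genes in either direction. With arrays blocked by number there were 4 of 18, against 10.3% of all tested genes. These were Mef2c, Vgll2 and Tbx15 with a higher mean, named after their values were seen, and Myf6 with a lower one, and 0 passed adjustment. The myogenic regulators Myod1, Myog and Myf6 differed by 0.098, -0.040 and -0.27, and Mef2a by 0.10. Fast fibre genes outside the myosins had a median of 0.013 (5 higher and 3 lower of 8). The fast troponins Tnnt3, Tnni2 and Tnnc2 differed by 0.016, -0.14 and 0.011, and the fast calcium pump Atp2a1 by 0.31 ± 0.16 (SE). Pvalb, the calcium buffer parvalbumin of fast fibres, was named after its values were seen, and differed in the opposite direction from the fast myosins, by -0.51 ± 0.25 (SE). It read 6.19, 6.74 and 6.81 in controls and 5.80, 5.81 and 6.60 in silenced arrays, lower in all 3 same-numbered pairs but with overlapping groups (limma, unadjusted p = 0.0799, adjusted p = 0.871). Blocked by number, Atp2a1 (higher) and Pvalb (lower) were the 2 of 8 at an unadjusted p under 0.05 by limma, against 10.3% of all tested genes, and neither passed adjustment. Slow fibre genes had a median of -0.045 (3 higher and 5 lower of 8). All silenced values lay below the controls for 3 of 8 (Casq2, Myoz2 and Csrp3, named after their values were seen), against 4.87% of all tested genes. They lay above the controls for 1 (Atp2a2), against 6.94%. Blocked by number, 1 was higher (Atp2a2) and 1 lower (Csrp3) at an unadjusted p under 0.05 by limma, against 10.3% of all tested genes, and 0 passed adjustment. The slow troponins Tnnt1, Tnni1 and Tnnc1 differed by 0.10, 0.11 and -0.034. The slow calcium pump Atp2a2 differed by 0.25 (limma, unadjusted p = 0.0408, adjusted p = 0.871). At the other end, and chosen after its values were seen, Csrp3 differed by -0.30 (limma, unadjusted p = 0.0458, adjusted p = 0.871).

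**Figure D4:**
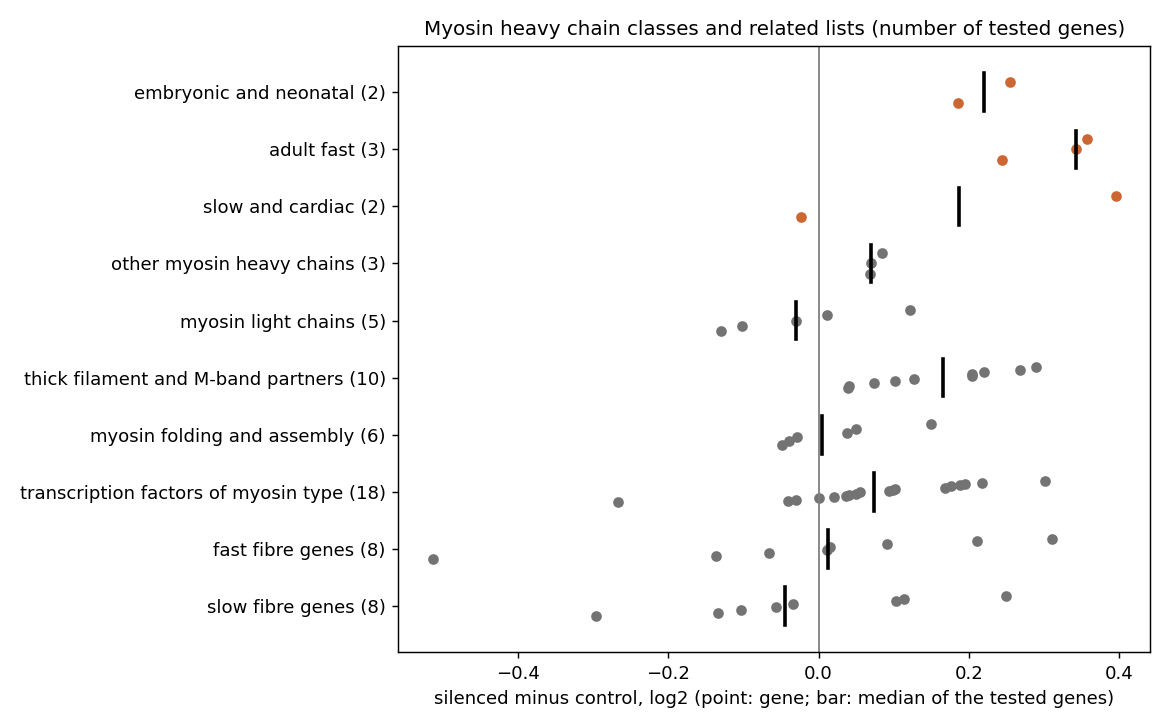
Difference of silenced minus control arrays (x axis, log2) for each tested gene of the myosin heavy chain classes (orange) and of related gene lists (grey), with the number of tested genes in brackets and a black bar at the median. The adult fast class has a median of 0.34, thick filament partners 0.17 and myosin light chains -0.031, while no single gene passed adjustment over all genes.

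The mean of the myotube markers read higher in silenced arrays, unevenly over its genes. All 9 myotube markers (Ckm, Acta1, Myog, Mymk, Des, Tnnt3, Cacna1s, Ryr1 and Neb) were above the filter. Of these, 8 had a higher mean in silenced arrays, against 52.7% of all tested genes, and none passed adjustment. Neb, Cacna1s, Mymk, Ryr1 and Des differed by 0.33, 0.32, 0.22, 0.21 and 0.15. Acta1, Ckm, Tnnt3 and Myog differed by 0.055, 0.034, 0.016 and -0.040. The groups did not overlap for 4 of 9 (Neb, Cacna1s, Mymk and Des, all higher), against 6.94% of all tested genes. The mean level of all 9 per array was 10.46 to 10.51 in controls and 10.53 to 10.77 in silenced arrays. It had no overlap only by a narrow margin, 10.51 in control replicate 3 against 10.53 in silenced replicate 1. Silenced replicate 3 was the highest array, and silenced replicate 2 read 10.59. Undifferentiated myoblast markers ranged from 6.76 to 7.05 and from 6.65 to 7.05 (8 of 10 tested, 4 higher and 4 lower). The groups did not overlap for 2 of these 8, named after their values were seen. Pax7 was higher, against 6.94% of all tested genes, and Id3 was lower, against 4.87%, and neither passed adjustment. The part of these markers in the myosin values was not tested. Of 8 cardiomyocyte markers, 5 were tested, 2 of them higher and 3 lower, and Nppa, Tbx5 and Myl7 were below the filter. The mean level of that list per array was 5.15 to 5.28 in controls and 5.14 to 5.29 in silenced arrays.

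For the other types that such a culture could hold, the mean level of smooth muscle markers was 7.48 to 7.64 in controls and 7.50 to 7.86 in silenced arrays (4 of 5 tested, 4 higher), with Myh11 below the filter. Fibroblast markers lay at 8.34 to 8.60 and 8.34 to 8.64 (4 of 5 tested, 2 higher and 2 lower), with Thy1 below it. Adipocyte markers lay at 3.65 to 3.73 and 3.59 to 3.78, with Adipoq, Fabp4 and Plin1 below the filter and 1 of 4 tested. Osteoblast and chondrocyte markers lay at 4.94 to 5.28 and 5.07 to 5.11 (3 of 5 tested, 2 higher and 1 lower), with Sp7 below it.

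Long genes were considered because several genes above encode very large proteins. Genomic span was known for 99.9% of the tested genes. It counts introns and cannot stand for the length of transcript or protein, which was not used here. Whether transcript length goes with the differences was not tested. All 7 measured myosin genes, spanning 22.6 to 31.5 kb, lay in quintile 3 of tested genes by span, whose median difference was -0.0023 with 49.3% higher in silenced arrays. Quintile 5, the longest, had a median of 0.039 with 62.5% higher, and quintile 1, the shortest, -0.0095 with 47.4%.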

How the data were processed

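Total RNA of 6 C2C12 samples was labelled with biotin and hybridized to Affymetrix whole-transcript arrays, 1 colour each, per the labels. For each of 35556 probe sets the authors deposited a log2 value from RMA, as named in the submitters' processing notes, where no version appears. RMA subtracts background, equalizes arrays and summarizes probes, and it compresses differences of dim genes. Array medians lay between 4.21 and 4.27, pairwise correlations between 0.985 and 0.995, and no arrays were identical; the number of arrays limits the precision.

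The platform annotation named 1 gene for 21218 probe sets and several for 1881. The probe set with the highest mean over the 6 arrays stood for a gene, and genes above the 40th percentile of mean level (3.87) were tested with limma 3.58.1 in R 4.3.3 (lmFit, eBayes, 2-sided, no covariate, Benjamini-Hochberg over 11292 genes, threshold 0.05), after a test of the script on simulated data. Errors of differences are moderated standard errors (SE), and values are mean ± SD with n = 3 where so given. The members and gene lists were chosen with earlier results of these data known. All members were named, and of each list all genes (up to 7 listed) or the first 4 measured. Further list genes were named after their values were seen, where so stated. The order of genes and the promoter and microRNA sequences are those of RefSeq for GRCm38.p6, which held all 8 genes; the build behind the array's probe sets was not given. The comparison of gene spans was added after the data were seen.

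Deviations from the group means correlated at 0.55, 0.35 and 0.42 between same-numbered arrays. The number was used to pair arrays in the replicate block and in the comparisons of same-numbered arrays, and not in the main fit. Errors, intervals and p-values come from the main fit, which ignores the pairing, unless the block is named. This pairing comes from the values, since no label states it. Alternatives covered the filter, repeated quantile normalization, the replicate block, eBayes with trend, array weights, the probe set per gene and leaving out arrays.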

Additional observations from a re-analysis of the deposited data

How the results depend on the processing

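Myh1, Myh3, Myh4, Myh7, Myh8 and Myh2 kept a higher mean in silenced arrays under every alternative run (14 each, and 13 for Myh2, which the stricter filter removed). Over all alternatives the difference was 0.23 to 0.33 for Myh3, 0.077 to 0.25 for Myh8, 0.17 to 0.30 for Myh2, 0.30 to 0.42 for Myh1, 0.11 to 0.52 for Myh4 and 0.26 to 0.50 for Myh7. Myh7b had no stable direction: it was -0.13 to 0.14 when arrays were left out, 0.072 without control replicate 1, 0.14 without silenced replicate 2, 0.013 with array weights and 9.80e-06 after repeated quantile normalization. Genes at limma's adjusted p under 0.05 numbered 0 under every alternative, the replicate block included (smallest adjusted p = 0.421 there, and 0.296 with array weights). The unadjusted count was 542, and 834 without a filter, which tests more genes, 1168 with arrays blocked by number (replicate block), 1109 with array weights and 1163 without both arrays numbered 1. It ranged from 276 (without control replicate 3) to 830 (without control replicate 1) when single arrays were left out. The count of members higher in silenced arrays at an unadjusted p under 0.05 ranged from 1 to 4 when single arrays were left out. It was 5 with the replicate block. It was 3 with the stricter filter (Myh2 not tested), with a trended robust fit and without both arrays numbered 1. Over all genes, in either direction, the count was 441 of 7528 with the stricter filter and 591 of 11292 with the trended robust fit. The share of all genes that were higher was computed only for the main fit and the replicate block. The cause of these changes was not tested. The replicate block changed no adjusted call.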
